A study of Mus musculus with 4 samples.

Results

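Gene expression of iPS-OSH, a mouse induced pluripotent stem (iPS) cell line, was set against that of mouse embryonic fibroblasts (MEF). Both populations were measured on a 1-colour Agilent whole genome array, with 1 array for each, and the arrays were chosen by their sample titles. They are 2 of the 4 samples of the series, which set the profiles of iPS-OSH, a further line called iPS-J, embryonic stem cells (ESC) and MEF against one another. Of 35368 genes with a value on both arrays, 31288 could be compared, since 1 array or both had the gene's probe well above background. The labelled strain is C57BL/6 for iPS-OSH, MEF and iPS-J, and 129SV for ESC. iPS-OSH, like iPS-J and ESC, was kept in DMEM with heat-inactivated fetal bovine serum (FBS), non-essential amino acids, L-glutamine, 2-Me and LIF (leukaemia inhibitory factor). MEF were kept in DMEM with less FBS, penicillin, streptomycin, non-essential amino acids and L-glutamine, with no LIF listed. The reprogramming factors, the cell of origin, the clone and passage, and whether feeder cells were used are not given in the sources used here.

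Induced pluripotent stem cells are somatic cells that were brought back to a state in which they can form all tissues of the body. In mouse cells this state rests on a network of transcription factors around Pou5f1 (also called Oct4), Sox2 and Nanog, held up in culture by LIF, and the cells grow as compact colonies joined by E-cadherin. Fibroblasts are the connective tissue cells from which such lines are often made. They are known for secreting collagen and other matrix, for contractile actin fibres, and for keeping the Hox code of the body region they come from.

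Signals are given as the processed signal of the scanner software, in arbitrary intensity units, and a difference is the log2 signal of iPS-OSH minus that of MEF after each array was scaled to its own 75th percentile. This percentile was 1553 on the iPS-OSH array and 1744 on the MEF array, so a fold differs slightly from the plain ratio of 2 printed signals. Where a probe was well above background on 1 array only, the fold is a lower bound, written as "at least". Signals of different genes cannot be ranked against each other, because every probe has its own brightness. With 1 array in each group no difference has a replicate check, no test was possible, and at least 2-fold is a rule on size alone. Among the 59305 spots that are not controls, the well-above-background share was 78.2% on iPS-OSH and 81.7% on MEF. Probes printed repeatedly gave a technical SD of 0.14 (log2) for a difference between these arrays, in which no variation from culture to culture is counted. The arrays lay on 1 slide, but MEF was scanned in session 1 and iPS-OSH in session 2, so scan session and cell population cannot be told apart.

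Over all 31288 genes, 3918 (12.5%) passed 2-fold upwards in iPS-OSH and 7411 (23.7%) passed it downwards. The median log2 difference was -0.33, with quartiles of -0.96 and 0.41, so 63.8% of the genes lay within 2-fold. Smaller differences leaned towards lower signals in iPS-OSH and the largest ones towards higher signals. At 4-fold, 1475 genes (4.71%) were higher and 1051 (3.36%) lower, and at 16-fold 388 (1.24%) were higher and 29 (0.0927%) lower. Lower bounds made up 125 of the 388 and 3 of the 29. The share of higher genes among those at least 2-fold different was 34.6%, against 44.8% with quantile normalization, which gave 4779 higher and 5880 lower genes. Gene lists are therefore read below beside the 12.5% and 23.7% of all genes and beside the median of -0.33, and a list whose shares lie near those of all genes is no result as a list. For iPS-J and ESC against MEF no shares or median over all genes are given, so their list values below have no such baseline.

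**Figure D1:**
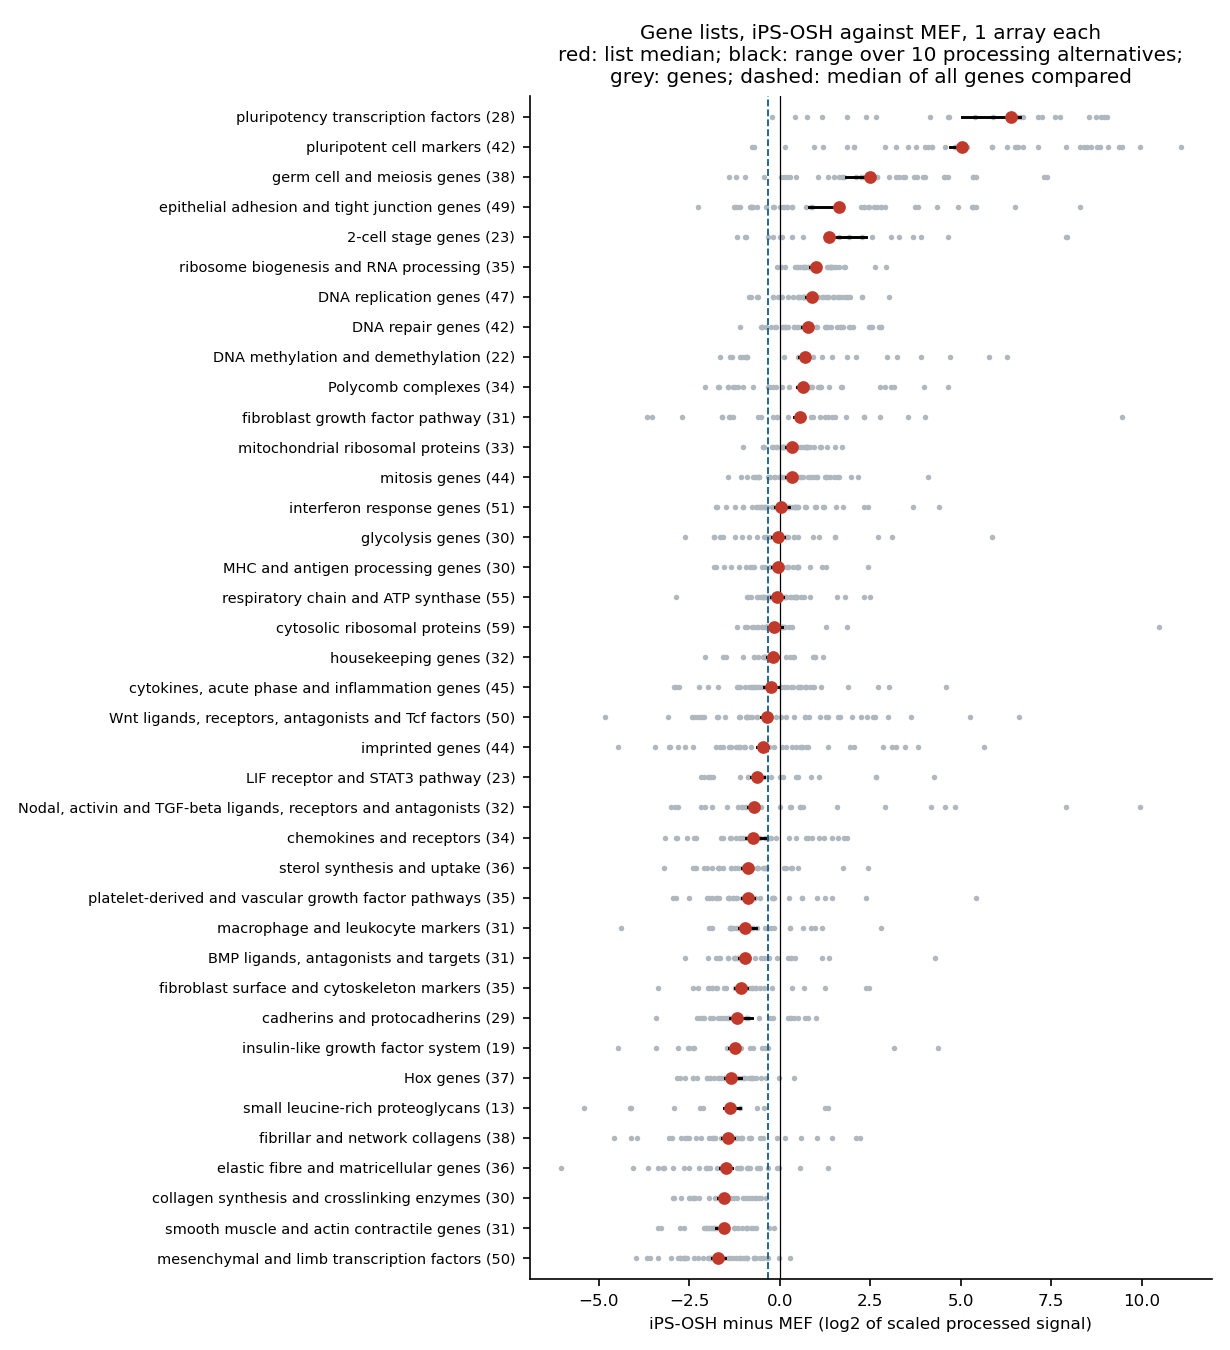
Log2 difference between iPS-OSH and MEF (x axis) for 39 gene lists (y axis, number of genes compared in brackets), where grey points are genes, red marks are list medians, black bars give the range of the median over 10 processing alternatives, and the dashed line is the median of all genes compared, -0.33. Pluripotency lists lie far to the right, with medians of 6.38 and 5.03, and bars that cross 0 belong to lists whose median changes sign with the processing.

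The markers of both cell types matched the labels, although the fibroblast markers were not absent from iPS-OSH. All 8 markers of pluripotent cells (Pou5f1, Sox2, Nanog, Dppa5a, Tdgf1, Fgf4, Epcam and Cdh1) passed background clearly in iPS-OSH, with a summed signal of 356296. On the MEF array the same probes summed to 525, and Sox2, Epcam and Cdh1 were not well above background. All 11 fibroblast markers (Thy1, Vim, Col1a1, Col1a2, Col3a1, Pdgfra, Pdgfrb, Dcn, Prrx1, Twist2 and Fap) were well above background on both arrays. Their summed signal was 2091381 on MEF and 663435 on iPS-OSH, against 127019 on the iPS-J array and 95414 on the ESC array. After scaling, 9 of the 11 were at least 2-fold lower in iPS-OSH than in MEF and 1, Dcn, was higher. In bulk RNA of this kind, fewer cells of a type and less RNA per cell cannot be told apart, and the part that fibroblasts or other cells within the iPS-OSH culture had in these signals was not tested.

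The transcription factors of the pluripotency network had the highest list median of all lists examined. Of 28 factors, 25 were higher in iPS-OSH by 2-fold or more and 0 lower, with a median difference of 6.38, and 8 of the values were lower bounds. Over genes detected on both arrays alone the median was 5.03. The median against the same MEF array was 6.01 for iPS-J and 5.45 for ESC. Within the core of the network, Pou5f1 gave 10442 in iPS-OSH and 83.5 in MEF, 140.4-fold higher in iPS-OSH. Sox2, its partner on DNA, gave 14469 in iPS-OSH and 14.8 (not well above background) in MEF, at least 429.6-fold higher. Nanog (mm9 chromosome 6, positions 122664590 to 122664649) gave 80560.3 in iPS-OSH and 183 in MEF, 494-fold higher, although its other detected probe lay at -1.08. All 3 core factors were thus far brighter in iPS-OSH than in MEF, where Sox2 was not well above background, and so were several partners in the network.

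Among the factors known for the naive state, Tfcp2l1 (mm9 chromosome 1, positions 120581646 to 120581705), a target of LIF signalling, gave 17865 in iPS-OSH and 15.4 (not well above background) in MEF, at least 530.4-fold higher. The orphan receptor gene Esrrb was 106-fold higher and the nuclear receptor genes Nr5a2 and Nr0b1 were 152-fold and at least 468-fold higher. Tcl1, a coactivator of Akt kinase, was at least 373-fold higher, the zinc finger gene Sall4 195-fold higher (with 2 other detected probes at -0.71 and 2.66), and Prdm14, which represses primed genes, at least 97.1-fold higher. Zfp42 (Rex1), a widely used marker of the naive state, gave 7251 in iPS-OSH, 15.6 (not well above background) in MEF, 8441 in iPS-J and 172198 in ESC. Both iPS lines thus lay far above MEF and far below ESC for this gene. Utf1, a chromatin-bound factor, was 59.1-fold higher, and Mycn, the Myc relative active in pluripotent cells, gave 18965 in iPS-OSH and 212 in MEF, 100.4-fold higher.

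Factors that fibroblasts also express differed much less. Klf5 and Klf2, Krüppel-like factors of the naive network, were 17.7-fold and 6.29-fold higher, and the repressor of neuronal genes Rest was 5.23-fold higher. Tbx3 gave 22529.7 in iPS-OSH and 7036 in MEF, 3.6-fold higher. Klf4 and Myc, members of the classical reprogramming cocktail, differed by less than 2-fold: Klf4 gave 17150.2 in iPS-OSH and 14374 in MEF, a difference of 0.42, and Myc gave 10986 in iPS-OSH and 7300.3 in MEF, a difference of 0.76. For Myc the iPS-J array gave 3901 and the ESC array 1369.8, both below MEF. The third factor within 2-fold was Zfx, with a difference of -0.22.

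Promoters of the genes with the largest differences were searched for the octamer ATGCAAAT, the DNA word that Oct4 and other POU factors are known to read, because Pou5f1 heads the network. RefSeq promoters (build GRCm38.p6, the 250 bases before the start, both strands) were found for 221 of the 388 genes at least 16-fold higher and for 17 of the 29 at least 16-fold lower. The octamer was in 8 of 270 promoters of the higher genes (2.96%), in 0 of 19 of the lower genes and in 275 of all 19362 promoters (1.42%). At 4-fold the shares were 2.52% of 1072 promoters of higher genes and 2.80% of 714 promoters of lower genes, so the word was about as frequent in both directions. The 8 windows are printed 5′ to 3′ on the gene's strand with the octamer in capitals, written ATTTGCAT where it lies on the other strand. A match is a description of the sequence and not a measured binding site.
Zfp42, chr8:43307177-43307206, minus strand: tctgaagaggcATTTGCATaactgagcaag
Zfp296, chr7:19577165-19577194, plus strand: aggagggcacaATTTGCATacaggtccctg
Mageb16, chrX:79671603-79671632, minus strand: aattccttctcATGCAAATaaagcattccc
Elf3, chr1:135258602-135258631, minus strand: tggcacggaatATGCAAATcacctgggaca
Platr21, chrX:139357819-139357848, minus strand: tgaattgtctcATTTGCATggagaggcatt
Pipox, chr11:77894049-77894078, minus strand: gggaaggcgccATTTGCATgacaataattg
Chchd10, chr10:75933036-75933065, plus strand: ggcacacgctgATGCAAATggctgatgcaa
Clca3b, chr3:144849360-144849389, minus strand: tcaacacctatATGCAAATattctggccgt

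The octamer started 186 bases before the start of Zfp42 and 111 bases before that of Zfp296, a zinc finger gene of the pluripotency list that was 25.5-fold higher in iPS-OSH (19222 against 846). Mageb16, an X-linked melanoma antigen family gene, was at least 374-fold higher, and Elf3, an epithelial ETS factor, at least 40.2-fold higher. The STAT word TTCNNNGAA, named for the factors downstream of LIF, was in 7.04% of the promoters of the 16-fold higher genes and in 6.46% of all promoters. The AP-1 word TGANTCA was in 4.44% against 5.79%. The TATA word TATAAA was in 11.5% of them against 9.91% of all promoters, and in 4 of the 19 promoters of the lower genes. Those 4 belong to genes of secreted proteins and are printed for that reason, in the same way.
Aspn, chr13:49544225-49544252, plus strand: ttttattagccTATAAAcagtgagtgat
Ogn, chr13:49607775-49607802, plus strand: ttttaaaaagaTTTATAaactaatattc
Lrrc17, chr5:21543350-21543377, plus strand: cttagtggctcTATAAAgttttggagat
Vip, chr10:5639050-5639077, plus strand: aacttgtttgcTATAAAtgtatataaat

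The match most distant from the start is printed for each gene, at 207, 229, 166 and 157 bases before the starts of Aspn, Ogn, Lrrc17 and Vip, and within the 250 bases Aspn held 2 matches and Vip 3 that do not overlap, the last of them in Vip much closer to the start. Aspn and Ogn, which encode small leucine-rich proteoglycans of collagen fibrils, were 42.2-fold and 17.4-fold lower in iPS-OSH. Lrrc17, a secreted leucine-rich repeat protein, was 53.7-fold lower and the neuropeptide gene Vip at least 16.7-fold lower.

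Other markers of pluripotent cells followed the factors. Of 42 markers, 38 were higher by 2-fold or more and 0 lower, with a median of 5.03, beside 5.63 for iPS-J and 5.56 for ESC against the same MEF array. Dppa5a, an RNA-binding protein of germ and pluripotent cells, gave 189895 in iPS-OSH and 98.5 in MEF, 2166-fold higher, but its probe may also read the near-identical Dppa5b. Gdf3, a TGF-beta family ligand, gave 33226 in iPS-OSH and 7.54 (not well above background) in MEF, at least 986-fold higher. Fgf4, the growth factor by which pluripotent cells ready themselves for differentiation, gave 36142 in iPS-OSH and 58.2 in MEF, 697-fold higher. All 3 were far brighter in iPS-OSH than in MEF, where Gdf3 was not well above background.

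The other members of this group had roles in chromatin, RNA and metabolism. Dppa2 and Dppa4, which bind chromatin as a pair, were at least 534-fold and at least 340.1-fold higher. L1td1, an RNA-binding protein derived from a LINE-1 element, was 458-fold higher, Trap1a, a tumour rejection antigen, at least 661-fold higher, and Fbxo15, a target of Oct4 and Sox2, 391-fold higher. Tdh, threonine dehydrogenase, on which mouse pluripotent cells are known to depend, gave 152330.0 in iPS-OSH and 479 in MEF, 357-fold higher. Lin28a, which blocks maturation of the let-7 miRNAs, was 28.6-fold higher and its relative Lin28b 13.7-fold higher, and Trim71, a let-7 target, 36-fold higher. Alpl, the alkaline phosphatase used to stain pluripotent colonies, gave 11758 in iPS-OSH and 142 in MEF, 92.7-fold higher. The 4 members within 2-fold were Spp1 (0.95), Apobec3 (0.14), the fucosyltransferase gene Fut4 (-0.71) and Ooep (-0.78). Fut9, a relative of Fut4, was higher in iPS-OSH, at a bound of 2.06.

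**Figure D2:**
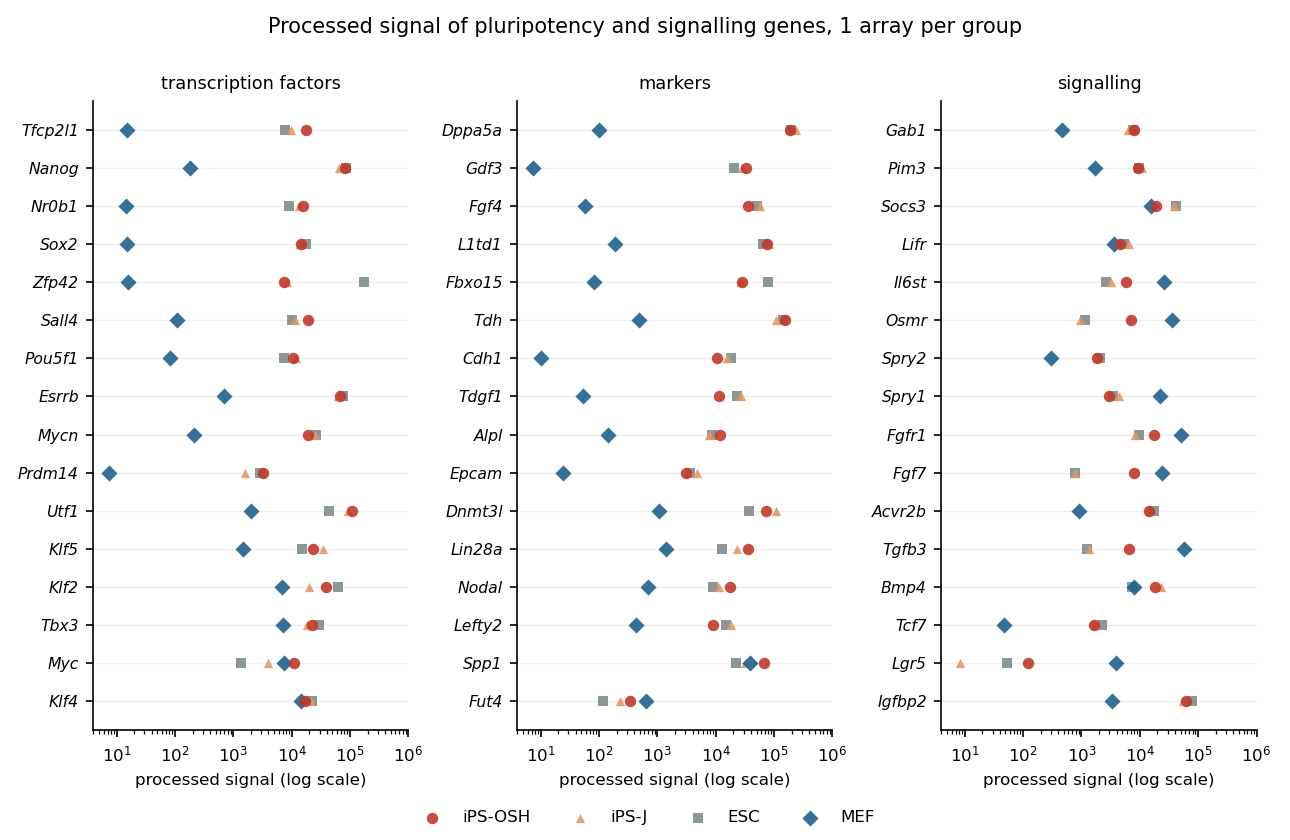
Processed signal (log axis, arbitrary units) of 16 pluripotency factors, 16 pluripotent cell markers and 16 signalling genes on the iPS-OSH, iPS-J, ESC and MEF arrays, 1 point per array. For Sox2 the signals are 14469 on iPS-OSH and 14.8 on MEF, whereas for Klf4 they are 17150.2 and 14374, so the gap between MEF and iPS-OSH spans most of the axis for some genes and almost none of it for others.

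Genes of primed epiblast and early lineages were mostly higher in iPS-OSH, by far less than the pluripotency factors. Of 15 compared, 9 were higher by 2-fold or more and 1 lower (median 1.27, or 0.51 over genes detected on both arrays). Krt18, a keratin of simple epithelia, gave 14031 in iPS-OSH and 3122 in MEF, 5.05-fold higher, and Pou3f1 (Oct6) gave 5343 in iPS-OSH and 1415 in MEF, 4.24-fold higher. The trophectoderm factor Cdx2, the endoderm factor Foxa2 and the Wnt ligand Wnt3 were at least 3.98-fold (Wnt3) to at least 5.22-fold (Cdx2) higher, with iPS-OSH signals of 176, 147 and 134. Pax6 was 5.02-fold higher, Sox1 2.42-fold higher and Eomes 2.31-fold higher, although the other probe of Eomes went the opposite way. Mixl1, Sox17, Nkx1-2, Lhx1 and Gsc lay within 2-fold, with Mixl1 at a bound of 0.50 and the others between -0.82 and -0.19. Fgf5, the textbook marker of primed epiblast, was 3.01-fold lower in iPS-OSH (248 against 838), and Cer1 was not well above background on either array. The ninth higher gene was brachyury, a mesoderm factor.

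LIF acts through a receptor of Lifr and Il6st (gp130), the Jak kinases and Stat3, and its targets include Socs3 and the Pim kinases. The pathway differed in both directions: of 23 genes of the pathway, 4 were higher by 2-fold or more and 7 lower (median -0.62). Lifr gave 4608 in iPS-OSH and 3640.4 in MEF, a difference of 0.51, and Il6st gave 5915 in iPS-OSH and 26391 in MEF, 3.97-fold lower. Osmr, the chain that with gp130 receives oncostatin M, gave 7026 in iPS-OSH and 35782 in MEF, 4.54-fold lower. Of the Jak family kinases, Jak1 and Jak2 were 4.26-fold and 3.6-fold lower and Tyk2 2.12-fold higher. The receptor gene Il11ra1 was 3.75-fold lower, and Stat3 had a difference of -0.86. Among the downstream genes, Pim1 and Pim3 were 6.33-fold and 6.35-fold higher, whereas Socs3 had a difference of 0.44. Gab1, an adaptor that joins these receptors to MAP kinase signalling, gave 8051 in iPS-OSH and 469.7 in MEF, a difference of 4.27, with 6198 for iPS-J and 7679.7 for ESC.

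Fibroblast growth factor (FGF) pathway genes differed in both directions. Of 31 genes, 12 were higher by 2-fold or more and 8 lower (median 0.57). Besides Fgf4, the ligand genes Fgf15 and Fgf17 were at least 16.3-fold and 11.7-fold higher in iPS-OSH. The mesenchymal ligand Fgf7 gave 8106 in iPS-OSH and 23941 in MEF, 2.63-fold lower, Fgf9 and Fgf21 were 11.6-fold and at least 12.6-fold lower, and Fgf10, another mesenchymal ligand, was 2.17-fold higher. Of the receptors, Fgfr1 gave 17749 in iPS-OSH and 51700.1 in MEF, 2.59-fold lower, and Fgfr4 was 5.01-fold higher, although its other probe lay below 0. The feedback inhibitors also went both ways: Spry2 gave 1814 in iPS-OSH and 298 in MEF, 6.83-fold higher, and Spry1 gave 3015 in iPS-OSH and 21852 in MEF, 6.45-fold lower. The ETS factors Etv5 and Etv4, which report FGF signalling, were 5.02-fold and 2.72-fold higher, and the decoy receptor gene Fgfrl1 was 3.0-fold lower.

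In the Nodal, activin and TGF-beta family, Nodal, its co-receptor and its inhibitors were higher and several TGF-beta genes lower. Of 32 genes, 7 were higher and 10 lower at 2-fold (median -0.71, beside -1.36 for iPS-J and -1.90 for ESC). Nodal gave 17387 in iPS-OSH and 685 in MEF, 28.5-fold higher, its co-receptor Tdgf1 was 238-fold higher, and its inhibitors Lefty1 and Lefty2 were 7.56-fold and 23.8-fold higher. The type II activin receptors differed in opposite directions: Acvr2b gave 14384 in iPS-OSH and 893 in MEF, 18.1-fold higher, and Acvr2a gave 281 in iPS-OSH and 2346 in MEF, 7.43-fold lower. Tgfb3 gave 6436 in iPS-OSH and 58318 in MEF, 8.07-fold lower, and Tgfb2 was 3.63-fold lower, while Tgfb1 had a difference of -0.00. Ltbp4, a matrix protein that binds latent TGF-beta, was 2.98-fold higher. Tgfbi, a TGF-beta induced matrix protein, the proprotein convertase gene Furin and the follistatin-like gene Fstl1 were 4.19-fold (Fstl1) to 7.06-fold (Tgfbi) lower.

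Of 31 genes of the BMP branch, 3 were higher by 2-fold or more and 14 lower (median -0.95). The 3 higher genes were the ligand genes Bmp7 (19.4-fold) and Bmp4 and the antagonist gene Grem1. Bmp4, which with LIF is known to hold mouse ESC undifferentiated, gave 18266 in iPS-OSH and 8046 in MEF, 2.55-fold higher. Grem1 gave 36457 in iPS-OSH and 18232 in MEF, 2.25-fold higher, whereas iPS-J gave 4569.6 and ESC 1738, so for this fibroblast-expressed antagonist iPS-OSH lay above MEF and the other pluripotent arrays below it. The lower genes included the ligand gene Gdf6 (6.16-fold), the targets Msx1 (3.97-fold) and Smad9 (3.14-fold), the receptor gene Bmpr1b (3.38-fold) and Bmp1 (3.2-fold), a procollagen protease.

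In the Wnt pathway the transcription factors Tcf7 and Lef1 were higher and several receptors lower. Of 50 genes, 14 were higher by 2-fold or more and 13 lower, with a median of -0.36, close to that of all genes. Tcf7 gave 1621 in iPS-OSH and 47.2 in MEF, 38.5-fold higher, and Lef1 gave 5234 in iPS-OSH and 473 in MEF, 12.4-fold higher, with a further probe of each in the same direction. The feedback target Axin2 was at least 6.23-fold higher, the receptor gene Fzd10 at least 98.1-fold higher and the ligand gene Wnt6 7.96-fold higher. On the lower side, Lgr5, an R-spondin receptor of stem cells and stroma, gave 123 in iPS-OSH and 3887 in MEF, 28.2-fold lower. Ccn4, a Wnt-induced matricellular gene, was 8.48-fold lower, the receptor genes Fzd1 and Fzd4 5.39-fold and 4.88-fold lower, and the R-spondin gene Rspo3 5.18-fold lower.

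Hedgehog pathway genes differed in both directions. Gli1 gave 4628 in iPS-OSH and 177 in MEF, 29.4-fold higher, but its other probe lay at -0.92, and Ptch1 was 4.23-fold higher, Gli2 3.14-fold higher and the ligand gene Dhh 3.01-fold higher. Hhip, a membrane inhibitor, was 8.76-fold lower, and the co-receptor genes Gas1, Cdon and Boc were 3.44-fold (Boc) to 7.39-fold (Gas1) lower. Gli3, Smo, Gpr161 and Bmi1 were 2.61-fold (Gpr161) to 3.25-fold (Bmi1) lower. Kif7, Ihh, Hhat, Sufu and Disp1 lay within 2-fold between -0.99 and 0.95, and Shh was not well above background on either array.

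Genes of the insulin-like growth factor (IGF) system were mostly lower: 12 of 19 were at least 2-fold lower and 2 higher (median -1.23). H19, the imprinted noncoding RNA next to Igf2, gave 15188 in iPS-OSH and 373390.0 in MEF, 21.9-fold lower, with 6 other detected probes between -4.78 and -0.009. Igf2 itself gave 1297 in iPS-OSH and 10259.9 in MEF, 7.05-fold lower. The binding protein genes Igfbp5, Igfbp6 and Igfbp7 were 5.28-fold (Igfbp7) to 5.76-fold (Igfbp5) lower, and Igfbp4 2.11-fold lower, while Igfbp3 had a difference of -0.81. Igfbp2 was the exception, with 61629.7 in iPS-OSH and 3364 in MEF, 20.6-fold higher. Pappa, a protease that cuts these binding proteins, was 10.6-fold lower, the adaptor gene Irs1 5.16-fold lower, and the receptor genes Igf1r and Igf2r 2.75-fold and 2.54-fold lower. Htra1, a secreted protease, and Igf2bp3 were 2.31-fold and 2.35-fold lower, and the RNA-binding gene Igf2bp1 8.92-fold higher. Igf1, Insr, Irs2 and Igf2bp2 lay within 2-fold, and Igfbp1 was not well above background on either array.

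In the Notch pathway, 8 of 21 genes were higher by 2-fold or more and 5 lower (median 0.22). The receptor gene Notch4 was 13.1-fold higher, the ligand genes Jag2 and Dll3 at least 10.1-fold and 4.2-fold higher, the glycosyltransferase gene Mfng 9.97-fold higher and the target Hes5 3.54-fold higher. Dner, Jag1, Maml2, Dll4 and Notch2 were 2.18-fold (Notch2) to 11.4-fold (Dner) lower. Among platelet-derived, vascular and related growth factor genes, 17 of 35 were lower and 5 higher. Pdgfrb, the receptor gene of mesenchymal and mural cells, gave 3989 in iPS-OSH and 32544 in MEF, 7.27-fold lower, and the ligand genes Hgf, Angpt1 and Pdgfc were 4.03-fold (Pdgfc) to 7.67-fold (Hgf) lower. Kit, a receptor of germ and pluripotent cells, gave 2607 in iPS-OSH and 69.4 in MEF, 42.7-fold higher, and the angiopoietin receptor gene Tek was 5.27-fold higher. The ligand genes Pdgfb, Areg and Egf were 2.04-fold (Egf) to 2.74-fold (Pdgfb) higher.

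Collagen genes were lower in iPS-OSH as a group, and by widely different amounts. Of 38 collagens, 26 were at least 2-fold lower and 4 higher (median -1.42). The main fibrillar genes were lower but still bright: Col1a1 gave 59875 in iPS-OSH and 398046 in MEF, 5.92-fold lower, and Col1a2 gave 141367 in iPS-OSH and 547610.0 in MEF, 3.45-fold lower. Col3a1 gave 9772 in iPS-OSH and 167442 in MEF, 15.3-fold lower. For Col1a1 the signals were 9759.8 for iPS-J and 9644 for ESC, and for Col1a2 26103 for iPS-J and 21139.7 for ESC, so iPS-OSH lay between these arrays and MEF for both chains of type I collagen. Col5a2 and Col11a1, minor chains that start fibrils, were 23.7-fold and 17.2-fold lower, and Col5a3 and Col8a2 8.36-fold and 7.89-fold lower. The 4 higher collagens were Col18a1, the source of endostatin (22769 in iPS-OSH and 5932 in MEF, 4.31-fold higher), Col26a1 (4.68-fold), Col9a2 (2.74-fold) and Col22a1 (2.03-fold).

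No enzyme or chaperone of collagen synthesis was at least 2-fold higher, and 21 of 30 were at least 2-fold lower (median -1.53). The prolyl 4-hydroxylase gene P4ha2, whose product stabilises the triple helix, gave 5074 in iPS-OSH and 44203 in MEF, 7.76-fold lower, with 17258 for iPS-J and 8495 for ESC. Adamts2, the procollagen N-proteinase, was 7.58-fold lower, and the crosslinking enzymes Loxl2 and Lox were 6.65-fold and 4.66-fold lower. The chaperone genes Serpinh1 (Hsp47) and Fkbp10 were 5.22-fold and 5.55-fold lower, and Creb3l1, a transcription factor of collagen genes, 5.68-fold lower. For P4ha2, iPS-OSH gave the lowest signal of the 4 arrays. Sparc, a collagen-binding matricellular protein, had a difference of -0.86.

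Small leucine-rich proteoglycans, which coat collagen fibrils, held both some of the largest differences below MEF and a marker above it. Of 13, 9 were at least 2-fold lower and 2 higher (median -1.38). Aspn (asporin) gave 200.5 in iPS-OSH and 9501 in MEF, 42.2-fold lower, Ogn gave 826 in iPS-OSH and 16136 in MEF, 17.4-fold lower, and Fmod (fibromodulin) gave 183 in iPS-OSH and 3524 in MEF, 17.2-fold lower. Dcn (decorin, mm9 chromosome 10, positions 96980233 to 96980292) gave 61552 in iPS-OSH and 27457 in MEF, 2.52-fold higher, whereas iPS-J gave 4134 and ESC 2677. Decorin was thus the fibroblast marker for which iPS-OSH stood above MEF while the other pluripotent arrays stood far below it. Lum and Bgn lay within 2-fold, at -0.44 and -0.62, and Omd, Podnl1, Ecm2, Podn, Prelp and Chad were between 2.15-fold and 7.52-fold lower. Nyx was 2.39-fold higher at a low signal (146 against 68.6), and Kera and Epyc were not well above background on either array.

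Elastic fibre and matricellular genes were lower for 24 of 36 members and higher for 1, with a median of -1.47, beside -3.20 for iPS-J and -3.91 for ESC. Thbs4, a thrombospondin of tendon, gave 35 in iPS-OSH and 2592 in MEF, 65.9-fold lower. Postn (periostin) gave 14055 in iPS-OSH and 161240.0 in MEF, 10.2-fold lower, and the fibrillin gene Fbn2 was 16.6-fold lower, Cthrc1 12.5-fold lower and Mfap4 9.31-fold lower. Fn1 (fibronectin) gave 146427 in iPS-OSH and 308654 in MEF, a difference of -0.91, with 75175 for iPS-J and 58563 for ESC. The group thus ran from genes far below MEF to genes level with it, and the only higher member was Spon1, at least 2.51-fold higher at a signal of 84.5.

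Basement membrane genes differed in both directions, with 5 of 21 higher and 7 lower (median -0.39). The laminin genes Lama1, Lama5 and Lama3 were 4.36-fold (Lama3) to 9.71-fold (Lama1) higher, Smoc1 6.3-fold higher and Nid2 3.13-fold higher. Lama1, a laminin chain of early embryos, gave 7188 in iPS-OSH and 831 in MEF, and 94969.6 for iPS-J and 18331 for ESC. Lama2 and Lama4, the laminin chains of muscle and vessels, were 6.4-fold and 4.86-fold lower, and Smoc2, Sparcl1 and Lamc3 2.86-fold (Lamc3) to 13.7-fold (Smoc2) lower.

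Matrix-degrading enzymes included a group of metalloproteinases that were higher in iPS-OSH than on the 3 other arrays. Mmp3 (stromelysin 1, mm9 chromosome 9, positions 7455751 to 7455810) gave 3815 in iPS-OSH and 299 in MEF, 14.3-fold higher, with 306 for iPS-J and 256 for ESC. Mmp13 gave 685 in iPS-OSH and 150.05 in MEF, 5.13-fold higher, and was not well above background on iPS-J or ESC. Mmp10 gave 2862 in iPS-OSH and 748 in MEF, 4.3-fold higher, with 236 for iPS-J and 192 for ESC, and Mmp1b was 3.4-fold higher at a signal of 116. These 4 collagenase and stromelysin genes are known to be made by stimulated fibroblasts, and Mmp15, a membrane-bound enzyme, was at least 6.03-fold higher. Over the list, 7 of 36 genes were higher and 14 lower (median -0.79), the lower ones led by the aggrecanase genes Adamts1 (8.16-fold) and Adamts5 (7.72-fold), Mmp23 (5.18-fold), Adamts12 (4.81-fold) and Mmp7 (4.75-fold). The inhibitor gene Timp2 had a difference of -0.11.

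Of the plasminogen system and serpins, 9 of 15 were at least 2-fold lower. Plat, the tissue plasminogen activator, gave 2744 in iPS-OSH and 9180.2 in MEF, 2.98-fold lower, and Plau, the urokinase, was 2.68-fold lower. Serpina3g was 7.37-fold lower, Serpinb9 3.86-fold lower, Serpinf1 3.42-fold lower, and Serpinb6a, Serpinb6b and Serpinb1a between 2.35-fold and 2.61-fold lower. Serpinb2, the inhibitor induced by inflammation, was the only higher member, with 499.8 in iPS-OSH and 145 in MEF, 3.87-fold higher, and 65.5 for iPS-J and 31.3 (not well above background) for ESC. Plaur, Serping1, Serpinb8, Serpine2 and Serpinb6c lay within 2-fold, and Serpina3n and Serpinb9b were not well above background on either array.

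**Figure D3:**
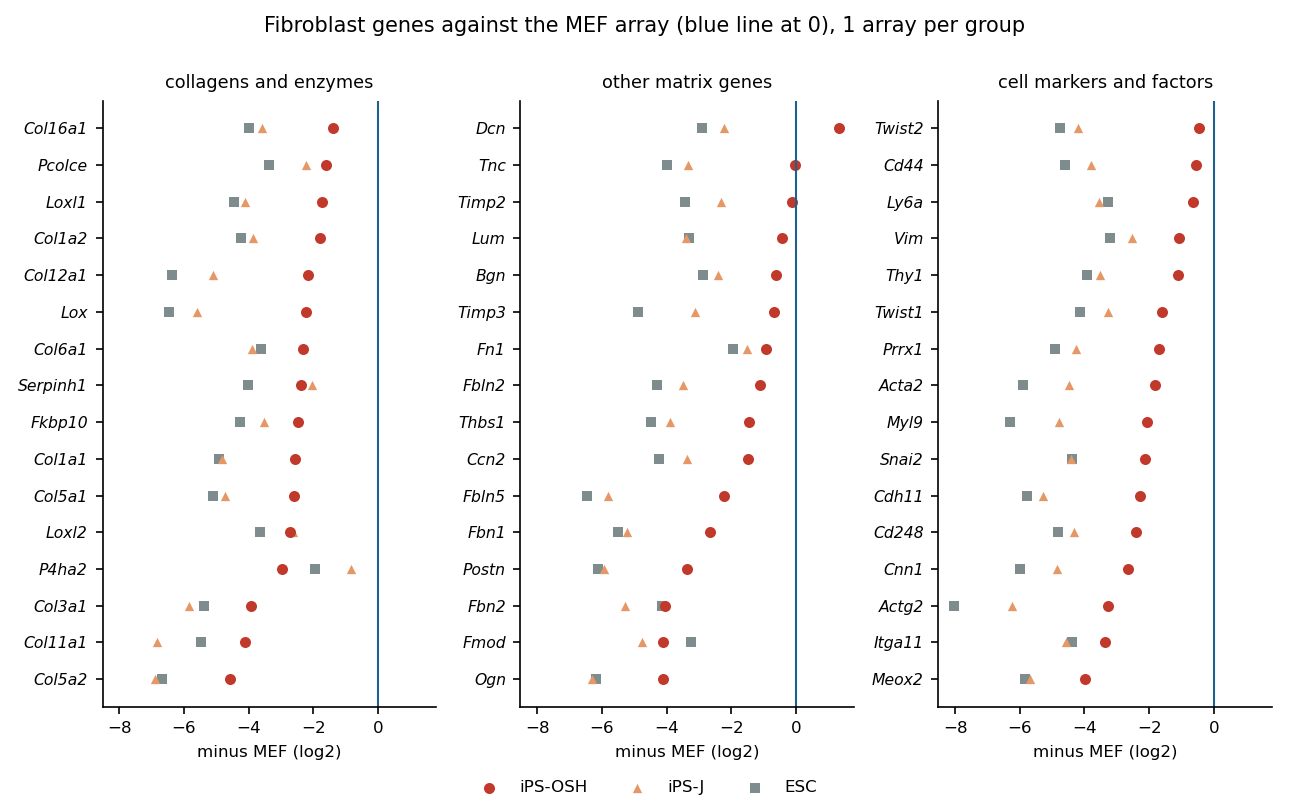
Log2 difference of iPS-OSH, iPS-J and ESC from the same MEF array (x axis) for collagens and their enzymes, other matrix genes, and fibroblast cell markers and factors (y axis), 1 point per array. The iPS-OSH points lie mostly between 0 and those of the other arrays, as for Col1a1 (-2.57), and to the right of 0 for Dcn (1.33). Bounds are drawn at their value.

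No transcription factor of the mesenchyme and limb list reached 2-fold above MEF, and 36 of 50 were at least 2-fold lower (median -1.71). The homeobox genes Meox2 and Meox1 were 15.7-fold and 8.08-fold lower, the forkhead gene Foxf2 12.7-fold lower, and Ebf3 and Osr1 12-fold and 10.2-fold lower. The factors of epithelial to mesenchymal transition were lower by less: Snai2 gave 4482 in iPS-OSH and 21829 in MEF, 4.34-fold lower, Twist1 was 3.04-fold lower, Snai1 3.61-fold lower and Zeb2 3.85-fold lower. Prrx1, a general factor of limb and connective tissue mesenchyme, gave 8442 in iPS-OSH and 30828 in MEF, 3.25-fold lower. Twist2, a dermal fibroblast factor, gave 20123 in iPS-OSH and 31062 in MEF, a difference of -0.46, with 1170.0 for iPS-J and 846 for ESC. Twist2 in iPS-OSH was thus close to MEF and far brighter than on the other pluripotent arrays.

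Fibroblast surface and cytoskeleton markers were lower for 19 of 35 members and higher for 3 (median -1.07, beside -2.66 for iPS-J and -3.31 for ESC). Thy1, the surface antigen often used to sort out fibroblasts during reprogramming, gave 153467 in iPS-OSH and 368030.0 in MEF, 2.14-fold lower, with 22518 for iPS-J and 17861 for ESC. Vim (vimentin) gave 200936 in iPS-OSH and 473808 in MEF, 2.1-fold lower, with 56657 for iPS-J and 37402 for ESC, and Cd44, the hyaluronan receptor, had a difference of -0.54. The collagen-binding integrin gene Itga11, Cd248 (endosialin), Cd34, Cav1 and Anxa1 were 3.88-fold (Anxa1) to 10.2-fold (Itga11) lower. The peptidase gene Mme, the ectonucleotidase gene Nt5e (CD73) and Dpt (dermatopontin) were 2.38-fold (Dpt) to 5.51-fold (Mme) higher.

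Contractile genes had no member at least 2-fold higher and 23 of 31 lower (median -1.54). Acta2, the smooth muscle actin of myofibroblasts, gave 133630.0 in iPS-OSH and 532503 in MEF, 3.55-fold lower, with 16526 for iPS-J and 6567 for ESC. Mylk, the myosin light chain kinase, Actg2, Lmod1, Cnn1 (calponin) and Myl9 were 4.23-fold (Myl9) to 10.2-fold (Mylk) lower.

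Joined together, the 7 matrix, mesenchymal and contractile lists held 239 genes, of which 233 were compared. Of these, 158 were at least 2-fold lower in iPS-OSH and 10 higher, with a median of -1.47, and the scaled signal in iPS-OSH had a median of 36.1% of that in MEF (quartiles 23.1% and 56.4%). Against the same MEF array, the median was -2.52 (17.4% of MEF) over 227 genes in iPS-J and -2.97 (12.7%) over 230 genes in ESC. Only 7 genes were at least 16-fold lower in iPS-OSH, whereas 48 were so in iPS-J and 66 in ESC. For the 70 genes of the joined pluripotency lists the medians were 5.88 for iPS-OSH, 5.96 for iPS-J and 5.52 for ESC. The 3 sets of differences share the MEF array and are given side by side only. Over all genes 0.0927% were at least 16-fold lower in iPS-OSH. The matching shares for iPS-J and ESC are not given, so a shift of either whole array was not accounted for.

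Epithelial genes, which mark the colony growth of pluripotent cells, were higher in 25 of 49 cases and lower in 5 (median 1.65). This median was 1.02 with normexp background correction and 0.80 over genes detected on both arrays. Cdh1 (E-cadherin) gave 10544 in iPS-OSH and 10.2 (not well above background) in MEF, at least 313-fold higher, and Epcam gave 3047 in iPS-OSH and 24.1 (not well above background) in MEF, at least 90.5-fold higher. The transcription factor Grhl2 and the membrane protease inhibitors Spint1 and Spint2 were 39.9-fold (Spint2) to 42.9-fold (Grhl2) higher, although the other probe of Spint2 lay below 0. The keratin gene Krt8 was 13.3-fold higher, while Krt19 gave 962 in iPS-OSH and 5139 in MEF, 4.76-fold lower. The desmosome gene Pkp2 and the claudin genes Cldn11 and Cldn12 were 2.24-fold (Cldn12) to 2.42-fold (Pkp2) lower, and Marveld3 2.14-fold lower.

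Other cadherins ran the opposite way, with 15 of 29 lower and 1, Pcdh8, higher. Cdh2 (N-cadherin) gave 8041 in iPS-OSH and 29164 in MEF, 3.23-fold lower, and Cdh11, the mesenchymal cadherin, was 4.91-fold lower. Pcdh18, Cdh10, Pcdh20 and Fat4 were 4.27-fold (Fat4) to 10.7-fold (Pcdh18) lower. In integrins, 8 of 21 were lower and 3 higher: Itgb7, Itga3 and Itga6, the last a laminin receptor of epithelia and stem cells, were 2.68-fold (Itga6) to 13-fold (Itgb7) higher. Itgae, Itga2b, Itgb6 and Itga8 were 2.54-fold (Itga8) to at least 3.59-fold (Itgae) lower.

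Gap junction genes were led by Gjb2 (connexin 26), which gave 371 in iPS-OSH and 30951 in MEF, 74.3-fold lower. Gjb5 was at least 2.58-fold higher. Gja5, Panx2 and Panx1 were 2.19-fold (Panx1) to 2.6-fold (Gja5) lower. Gja1 (connexin 43), Gjc1, Gja3, Gja4, Gjb1 and Gjd2 lay within 2-fold, Gja1 at 0.72 and Gjd2 at a bound of -0.96, and Gjb6 and Panx3 were not well above background on either array.

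Axon guidance genes, which guide migrating cells as well as nerve fibres, were lower for 15 of 45 members and higher for 5. Plxna4, a semaphorin receptor, the Eph receptor gene Epha3, Slit2, Plxnd1 and Plxnc1 were 4.79-fold (Plxnc1) to 23.4-fold (Plxna4) lower, but the other detected probe of Plxna4 lay at -0.22. Sema4d, Efnb3, Epha4, Epha2 and Sema4b were 2.46-fold (Sema4b) to 14-fold (Sema4d) higher.

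Hox genes, which record body position, were lower in 25 of 37 cases and higher by 2-fold in 0, with a median of -1.34, beside -2.68 for iPS-J and -2.82 for ESC. The cluster medians were -1.67 for Hoxa, -0.98 for Hoxb, -1.34 for Hoxc and -1.62 for Hoxd. In iPS-J the same clusters had medians of -2.37, -2.90, -3.60 and -2.07, and in ESC of -2.33, -3.0, -4.01 and -2.18. The medians of all 4 clusters in iPS-OSH thus lay nearer to MEF than those of the other pluripotent arrays, with wider gaps for Hoxb and Hoxc than for Hoxa and Hoxd. Hoxc6, bright in MEF, gave 9444 in iPS-OSH and 27125 in MEF, 2.56-fold lower, with 1261 for iPS-J and 979 for ESC. Hoxd10, Hoxc11, Hoxa11, Hoxc4 and Hoxd11 were 5.21-fold (Hoxd11) to 7.09-fold (Hoxd10) lower, and Hoxc8 had a difference of -0.02.

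**Figure D4:**
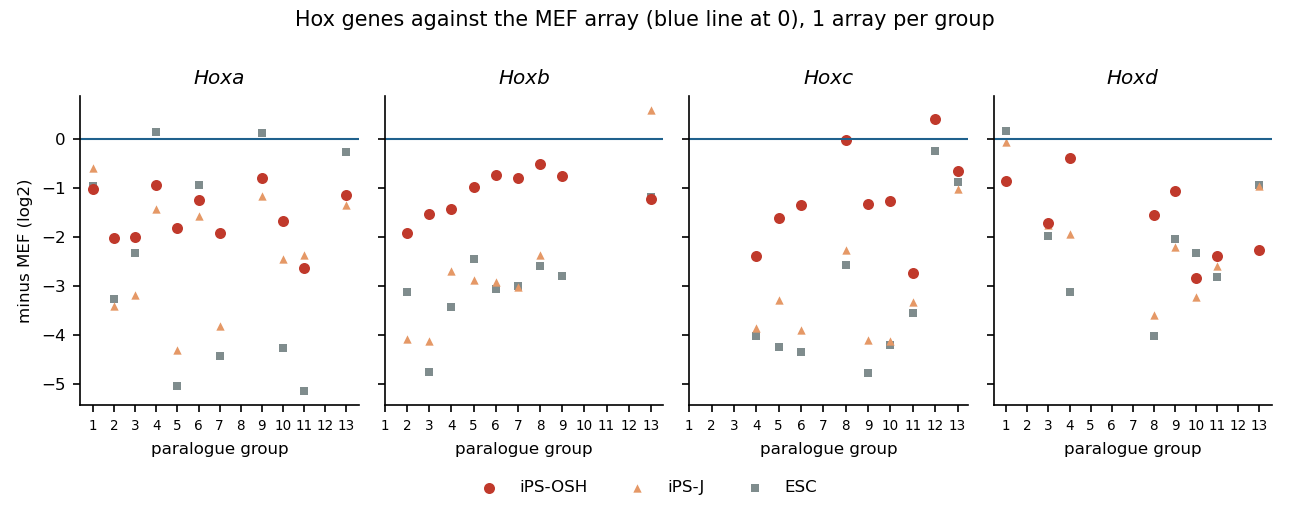
Log2 difference of iPS-OSH, iPS-J and ESC from the same MEF array (y axis) for the Hox genes compared, by paralogue group (x axis) in 4 panels, 1 per cluster, with bounds drawn at the bound. No Hox gene of iPS-OSH is 2-fold above MEF, and its points lie above those of iPS-J and ESC for most of the Hoxb and Hoxc genes.

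Of the 9 genes of Hox cofactors, Meis1, Pknox2, Pbx3 and Meis2 were 2.66-fold (Meis2) to 5.24-fold (Meis1) lower, and Pbx2 was 2.03-fold higher. Meis3, Pknox1 and Pbx4 lay within 2-fold.

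Polycomb complexes, which hold developmental genes silent, held subunits that differed in both directions: 13 of 34 genes were higher and 9 lower (median 0.66). Partners of the methyltransferase complex led the higher genes, with Epop 24.9-fold higher, Jarid2 15.8-fold higher and Mtf2 8.48-fold higher. Its catalytic subunit Ezh2 gave 11304 in iPS-OSH and 6067 in MEF, 2.09-fold higher. Pcgf6 and Phc1 were 8.91-fold and 7.53-fold higher, while the subunit gene Bmi1, which represses the Cdkn2a locus, was 3.25-fold lower. The chromodomain genes went both ways, as Cbx7 was 3.25-fold higher and Cbx8 was 3.16-fold lower. Yaf2 and Phc2 were 2.7-fold and 2.68-fold lower.

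Genes of DNA methylation included the de novo methyltransferase Dnmt3b, 54.6-fold higher (38643 against 795), and its cofactor Dnmt3l, 77.3-fold higher. Dnmt1, the maintenance enzyme, had a difference of 0.51 and Dnmt3a one of -0.90. The oxidases Tet1 and Tet2 were 25.9-fold and 7.75-fold higher, and Tet3 was 2.6-fold lower. Zfp57, which guards imprints, was 15.1-fold higher, although its other probe was level, and the remodeller gene Hells was 9.4-fold higher. Gadd45g, Mbd1, Mbd2 and Uhrf2 were 2.07-fold (Uhrf2) to 3.15-fold (Gadd45g) lower.

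Remodelling complexes were close to level as a list (7 higher and 3 lower of 35, median -0.05, whose sign changes under 3 of 10 processing alternatives). Arid3b, Smarcd1, Smarcad1, Chd7 and Actl6a were 4.2-fold (Actl6a) to 11.6-fold (Arid3b) higher. Smarca2 (Brm), the ATPase known to replace Smarca4 (Brg1) in differentiated cells, was 3.96-fold lower, Chd3 was 5.94-fold lower, and Smarca4 had a difference of -0.38. The main probe of Smarcc1 was 5.91-fold lower, but its 3 other probes lay between -0.50 and 1.25. Among histone lysine methyltransferases and demethylases, 10 of 33 were higher, led by Smyd3 (4.27-fold), Kdm6a (4.25-fold), Kdm5b (3.25-fold), Dpy30 (3.18-fold) and Kdm4c (3.13-fold), and Setd7 and Prdm16 were 3.26-fold and 2.52-fold lower.

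Of the 20 linker and variant histone genes, H1f1 was 3.28-fold higher and Macroh2a2 2.02-fold lower. All others lay within 2-fold, between -0.73 (H2bc6) and a bound of 0.92 (H1f3), among them H1f0, H1f2, H1f4, H1f5, H1f8, H1f10, H2bc4, H2aj, H2ax, H2az1, H2az2, H3c15, H3f3a, H3f3b, Cenpa and Macroh2a1.

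Germ cell and meiosis genes were higher in 29 of 38 cases and lower in 2 (median 2.49, or 1.84 with normexp background correction), and 10 of the 38 values were bounds. Syce1, of the synaptonemal complex, gave 8161 in iPS-OSH and 54.7 in MEF, 168-fold higher, and the X-linked homeobox gene Rhox5 gave 152814 in iPS-OSH and 1100.2 in MEF, 156-fold higher, followed by Rhox9 (40.6-fold) and Rhox6 (at least 40.5-fold). Hspa1l and Tdrd7 were 2.61-fold and 2.31-fold lower. Genes of the 2-cell embryo were higher in 14 of 23 cases (median 1.35, beside 1.71 for iPS-J and 4.30 for ESC), and the median was 2.39 with measured differences in place of bounds. Bounds made up 10 of the 23 values. In both lists a gene detected on iPS-OSH alone could enter only with a positive difference, so these counts partly follow from detection. Zscan4f gave 8291 in iPS-OSH and 7.54 (not well above background) in MEF, at least 246-fold higher, with 8249 for iPS-J and 72504 for ESC, and Zscan4e and Zscan4c were at least 238-fold and 12.8-fold higher. The copies of this family are near-identical, so their probes cannot be counted as separate genes. Mael, of the piRNA pathway, was 24.9-fold higher and the predicted gene Gm4340 14.8-fold higher, while Tdpoz2 was 2.26-fold lower.

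Genes of other early lineages differed in both directions. The 6 defining endoderm markers (Gata4, Gata6, Sox7, Sox17, Amn and Cubn) summed to 4390 on iPS-OSH, 2787 on MEF, 79225 on iPS-J and 7242 on ESC. In the wider endoderm list, 11 of 33 genes were higher and 5 lower. The lipid carrier gene Apoe gave 55645 in iPS-OSH and 3920.0 in MEF, 15.9-fold higher, and Foxq1, Amn, Cldn6 and Hnf4a were 4.45-fold (Hnf4a) to 12.3-fold (Foxq1) higher. Fga, Pdgfra and Dab2 were 2.4-fold (Dab2) to 3.58-fold (Fga) lower.

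In the trophoblast list, 8 of 22 genes were higher and 4 lower. Tfap2c, a factor shared by trophoblast, germ cells and naive pluripotent cells, gave 12314 in iPS-OSH and 94.8 in MEF, 146-fold higher, while Elf5, which defines trophoblast stem cells, was not well above background on iPS-OSH. Hand1 and Esx1 were at least 7.59-fold and at least 6.74-fold higher at signals of 256 and 227. Cdh3, Prl3d1 and Plac1 were 2.6-fold (Plac1) to 3.15-fold (Cdh3) lower. The neural list had 12 higher and 6 lower of 30 genes, and its median of 0.02 changed sign under 6 of 10 processing alternatives. Stmn2, Mapt and Nefl, known from neurons, were 18-fold (Nefl) to 30.6-fold (Stmn2) higher, and the neural progenitor and epiblast factors Sox3 and Zic2 at least 26.4-fold and 17.8-fold higher. Sox11, Ncam1, Tubb3, Pax7 and Nes were 2.38-fold (Nes) to 7.52-fold (Sox11) lower.

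Genes named for endothelium were higher in 8 of 18 cases, yet Tie1 and Erg were not well above background on either array, Cdh5 gave 42.1 on iPS-OSH, and Emcn was not well above background there. Robo4, Mmrn2, Esam, Vwf and Plvap were 7.32-fold (Plvap) to 33.8-fold (Robo4) higher, with Esam at a bound of 3.50 (log2). Pecam1 and Egfl7, both known in pluripotent cells, were 3.62-fold and 2.75-fold higher. For Robo4 the signals were 1193 in iPS-OSH and 39.7 in MEF, with 1097 for iPS-J and 2211 for ESC. Ecscr, Emcn and Flt1 were 3.36-fold (Flt1) to 6.72-fold (Ecscr) lower, with Emcn at a bound of -2.04 (log2). Kdr, Icam2, Nos3, Cldn5, Sox18 and Lyve1 lay within 2-fold or had a bound below it.

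Cartilage, bone and tendon genes were lower in 17 of 27 cases, and Alpl was the only one higher. Tnmd (tenomodulin, mm9 chromosome X, positions 130397487 to 130397546), which defines tendon cells, gave 182 in iPS-OSH and 18288 in MEF, 89.5-fold lower, and was not well above background on iPS-J or ESC. Ptn, a heparin-binding growth factor, and Tnn were 11.4-fold and 5.33-fold lower, and Sox9, the cartilage factor, 3.87-fold lower. Muscle and fat genes were lower for 13 of 27 members and higher for 4. Tnnt2, Acta1, Scd1, Lpl and Cebpd were 3.98-fold (Cebpd) to 9.24-fold (Tnnt2) lower. The muscle genes Myh3 and Tnnt1 were 5.55-fold and 5.33-fold higher, Ttn (titin) was higher too, and Adipoq was 2.86-fold higher at a signal of 191.

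Macrophage and leukocyte markers were detected on the MEF array and on the iPS-OSH array, where some of them were lower. All 8 defining markers (Ptprc, Cd68, Itgam, Tyrobp, Csf1r, C1qa, C1qb and Spi1) were well above background on iPS-OSH, with a summed signal of 32239, against 61103 on MEF, where Spi1 was not well above background. The sum was 17488 on iPS-J and 11253 on ESC. After scaling, 4 of the 8 were at least 2-fold lower in iPS-OSH than in MEF and 0 higher. Ptprc, Itgam and Cd68 lay within 2-fold, at -0.93, -0.76 and 0.86, and Spi1 at a bound of 0.29. Tyrobp, a signalling adaptor of myeloid cells, gave 1129 in iPS-OSH and 3104 in MEF, 2.45-fold lower, with 135 for iPS-J and 119 for ESC. The complement gene C1qa gave 661 in iPS-OSH and 1496 in MEF, 2.01-fold lower, with 90.9 for iPS-J and 149 for ESC. Both genes thus lay between MEF and the other pluripotent arrays, as many fibroblast genes did.

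In the wider list, 15 of 31 macrophage and leukocyte genes were at least 2-fold lower in iPS-OSH and 2 higher (median -0.95). Cx3cr1, the fractalkine receptor of resident macrophages, was at least 20.8-fold lower, with its other detected probe at -1.82. Csf1r, Mrc1, Ms4a7 and Lyz1 were 2.59-fold (Lyz1) to 3.86-fold (Csf1r) lower. Laptm5, a lysosomal protein of blood cells, gave 2532 in iPS-OSH and 408 in MEF, 6.96-fold higher, with a further probe in the same direction, and Cd74 was 2.25-fold higher. Against the same MEF array the list median was -2.0 for iPS-J and -1.86 for ESC. The part of leukocytes in the inflammation values described next was not tested.

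Some chemokine genes known from fibroblasts were as bright in iPS-OSH as in MEF or brighter, and others far lower. Ccl2, which attracts monocytes, gave 130744 in iPS-OSH and 85111 in MEF, a difference of 0.79, with 5987 for iPS-J and 7492 for ESC. Ccl7, its neighbour on the chromosome, gave 64460.2 in iPS-OSH and 52658 in MEF, a difference of 0.46, with 3989 for iPS-J and 4139 for ESC. Ccl11 (eotaxin) gave 1648 in iPS-OSH and 507 in MEF, 3.65-fold higher, and was not well above background on iPS-J or ESC. For Ccl2 and Ccl7 iPS-OSH thus lay within 2-fold of MEF or above it, and the other pluripotent arrays far below. Cxcl12, the stromal ligand of Cxcr4, gave 7495 in iPS-OSH and 76130.5 in MEF, 9.05-fold lower, and Cxcl14, Cxcl5, Cx3cl1 and Ackr4 were 5.12-fold (Ackr4) to 7.28-fold (Cxcl14) lower. Ackr3, Cxcr4, Ccl8 and Ccl5 were 2.34-fold (Ccl5) to 3.44-fold (Ackr3) higher. In all, 6 of 34 were higher and 13 lower (median -0.75, beside -1.75 for iPS-J and -1.43 for ESC).

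Among cytokines and acute phase genes, 5 of 45 were higher and 9 lower (median -0.25). This is near the 12.5%, 23.7% and -0.33 of all genes and so no result as a list, and the genes named are single members. Saa3, an acute phase protein made by stimulated fibroblasts and macrophages, gave 2763 in iPS-OSH and 128 in MEF, 24.3-fold higher, with 116 for iPS-J and 224 for ESC. The complement gene Cfb was at least 8.13-fold higher, the adhesion gene Icam1 6.63-fold higher, the complement protease gene C1s1 3.69-fold higher and the Csf1r ligand gene Il34 2.22-fold higher. Saa3 was thus higher on iPS-OSH than on all 3 other arrays. Il6 gave 1268 in iPS-OSH and 2184 in MEF, a difference of -0.62, with 48.1 for iPS-J and 191 for ESC. The interleukin-1 receptor gene Il1r1, the hyaluronan-binding gene Tnfaip6, Il18 and Tnfrsf11b (osteoprotegerin) were 3.94-fold (Tnfrsf11b) to 7.21-fold (Il1r1) lower, and Csf3 at least 7.63-fold lower.

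Interferon response genes were level with MEF as a list, with 9 of 51 higher and 6 lower and a median of 0.04 that changed sign under 2 of 10 processing alternatives. Against the same MEF array the medians were -0.86 for iPS-J and -1.0 for ESC. Ifit3 gave 3158 in iPS-OSH and 711 in MEF, 4.98-fold higher, with 140.1 for iPS-J and 127 for ESC. Isg15, a ubiquitin-like modifier, gave 10354 in iPS-OSH and 8483 in MEF, a difference of 0.45, with 797 for iPS-J and 1669 for ESC. Both were thus far brighter on iPS-OSH than on the other pluripotent arrays. Ifitm1, by contrast, known as a marker of pluripotent and germ cells too, gave 31959.7 in iPS-OSH and 1696 in MEF, 21.2-fold higher, with 31432 for iPS-J and 46016 for ESC. The antiviral synthetase genes Oas2 and Oas1a and the sensor gene Zbp1 were 3.37-fold (Zbp1) to 12.9-fold (Oas2) higher, and Isg20, Irf2, Ifnar1, Oas1g and Iigp1 were 2.01-fold (Iigp1) to 3.4-fold (Isg20) lower.

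Genes of antigen presentation were close to level too (3 higher and 5 lower of 30, median -0.05, with a change of sign under 3 of 10 alternatives). B2m, the light chain of class I molecules, gave 94185 in iPS-OSH and 117222 in MEF, a difference of -0.15, with 8712 for iPS-J and 7274 for ESC. The class II gene H2-Eb1 and the class I gene H2-Q4 were 5.38-fold and 2.43-fold higher. Cd1d1, Erap1, H2-Ab1, H2-M3 and H2-Q1 were 2.17-fold (H2-Q1) to 3.52-fold (Cd1d1) lower. Probes of the class I genes can read near-identical relatives, so single members are uncertain.

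**Figure D5:**
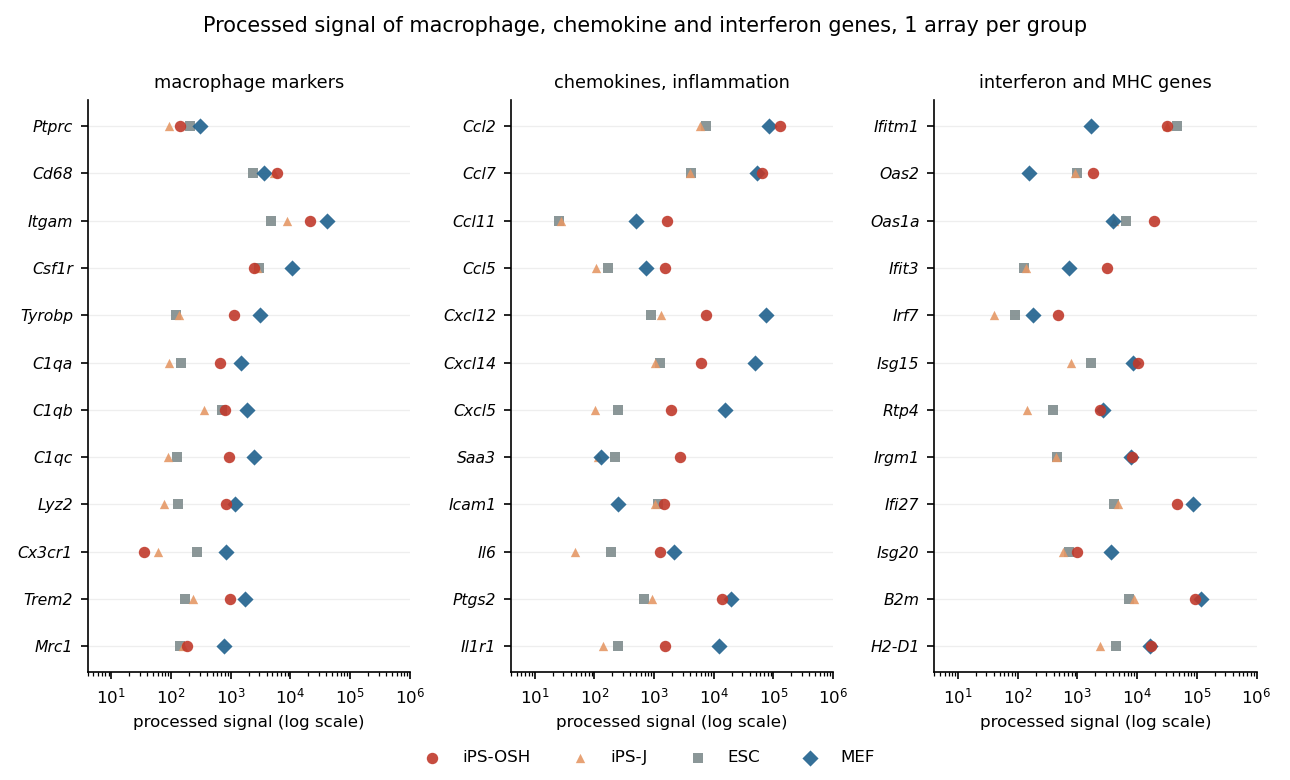
Processed signal (log axis, arbitrary units) of 12 macrophage markers, 12 chemokine and inflammation genes, and 12 interferon and MHC genes on the iPS-OSH, iPS-J, ESC and MEF arrays, 1 point per array. Ccl2 gives 130744 on iPS-OSH and 85111 on MEF against 5987 on iPS-J and 7492 on ESC, and on iPS-OSH the macrophage marker Tyrobp lies between MEF and the other pluripotent arrays.

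Metabolic genes differed in single steps more than as lists. Glycolysis genes had 6 higher and 7 lower of 30 (median -0.04, with a change of sign under 3 of 10 alternatives). Slc2a3 (GLUT3), a glucose transporter of neurons and pluripotent cells, gave 49716 in iPS-OSH and 950.5 in MEF, 58.7-fold higher. The gluconeogenic genes Fbp1 and Fbp2 were at least 8.64-fold and at least 6.55-fold higher, and Ldhb and Pfkp 2.89-fold and 2.86-fold higher. The lactate exporter gene Slc16a3 gave 11179.7 in iPS-OSH and 76599 in MEF, 6.1-fold lower, and Pfkfb3, Eno3, Slc16a1 and Pfkfb4 were 2.94-fold (Pfkfb4) to 3.53-fold (Pfkfb3) lower. Among hypoxia and redox genes, Bnip3, Adm, Ndrg1, Ddit4 and Gpx7 were 3.18-fold (Ddit4) to 6.4-fold (Adm) lower, while the glutathione enzymes Gsta4 and Gpx2 and the metallothionein gene Mt2 were 2.42-fold (Mt2) to 22.3-fold (Gsta4) higher. Bnip3, a target of hypoxia-inducible factor, gave 11946 in iPS-OSH and 58298 in MEF, with 90562 for iPS-J and 48866 for ESC, so iPS-OSH had the lowest of the 4 signals.

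Genes of one-carbon metabolism differed in both directions (10 higher and 7 lower of 33, median 0.12, with a change of sign under 2 of 10 alternatives). Gldc and Amt, of the glycine cleavage system, were 11.3-fold and 6.46-fold higher, while its other members Gcsh and Dld had differences of 0.47 and -0.11. Shmt1 was 12-fold higher and the purine synthesis gene Gart 4.55-fold higher. Psat1 and Psph, of serine synthesis, were 3.51-fold and 3.3-fold lower, Phgdh had a difference of -0.99, and the mitochondrial folate enzymes Mthfd2 and Mthfd2l were 2.98-fold and 2.61-fold lower. Aldh1l2, the mitochondrial formyltetrahydrofolate dehydrogenase, gave 420.5 in iPS-OSH and 14309.9 in MEF, 30.3-fold lower. Of 31 amino acid transporter genes, 5 were higher and 7 lower (median -0.42). This is near the shares and the median of all genes and so no result as a list. The higher ones were Slc38a5 (at least 17.2-fold), Slc7a7 (9.63-fold), Slc7a9 (at least 4.98-fold), Slc7a3 (4.02-fold) and Slc6a15 (2.02-fold). The glycine transporter gene Slc6a9 was 7.49-fold lower, the cystine transporter gene Slc7a11 at least 6.01-fold lower, and Slc36a4, Slc36a1 and Slc7a1 2.81-fold (Slc7a1) to 4.08-fold (Slc36a4) lower.

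Sterol synthesis and uptake genes were lower for 17 of 36 members and higher for 2 (median -0.87). The late enzymes Cyp51, Sc5d and Msmo1 were 4.29-fold (Msmo1) to 5.21-fold (Cyp51) lower, Fdps gave 27129 in iPS-OSH and 122329 in MEF, 4.02-fold lower, and Hmgcs1 was 2.56-fold lower. The 2 higher genes were the cholesterol exporters Abcg1 (5.38-fold) and Abca1 (3.38-fold), and Cyp7b1, an oxysterol hydroxylase, was 5.01-fold lower.

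The respiratory chain and the ribosome were close to level as lists. Of 55 respiratory chain and ATP synthase genes, 4 were higher by 2-fold or more and 1 lower (median -0.06, with a change of sign under 2 of 10 alternatives). The muscle isoform Cox7a1, the testis isoform Cox6b2, the uncoupling protein gene Ucp2 and the mitochondrial DNA factor Tfam were 2.97-fold (Tfam) to 5.65-fold (Ucp2) higher, and the muscle isoform Cox6a2 was 7.28-fold lower. Of 59 cytosolic ribosomal protein genes, 3 were higher and 1 lower, and the median of -0.15 changed sign under 1 of 10 alternatives. All 3 higher genes were paralogues of general ribosomal protein genes: Rpl10l (48148 in iPS-OSH and 10.0 (not well above background) in MEF, at least 1429.5-fold), Rpl39l (3.6-fold) and Rpl3l (2.41-fold), and Rpl22l1 was 2.27-fold lower. Whether the Rpl10l probe also reads Rpl10 cannot be told here, although Rpl10 itself had a difference of -0.11.

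Genes that make ribosomes were higher, unlike those of the ribosome itself. Of 35 ribosome biogenesis and RNA processing genes, 18 were higher by 2-fold or more and 0 lower (median 1.01). Ncl (nucleolin) gave 263637 in iPS-OSH and 85903 in MEF, 3.45-fold higher, and Wdr12 and Rrp9 were 3.49-fold and 3.09-fold higher. The telomere-binding genes Rif1 and Terf1, also on this list, were 7.62-fold and 6.25-fold higher. Of 33 mitochondrial ribosomal proteins, 5 were higher (Mrpl15, Mrps31, Mrps2, Mrpl37 and Mrps9, by 2.16-fold to 3.31-fold) and Mrps6 was 2.01-fold lower.

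DNA replication and repair genes were higher in iPS-OSH, and whether the 2 populations divided at different rates was not tested. Of 47 replication genes, 20 were higher by 2-fold or more and 0 lower (median 0.90), and of 42 repair genes, 19 were higher and 1, Chek1, lower (median 0.79). Mcm3, of the replicative helicase, gave 102567 in iPS-OSH and 23688 in MEF, 4.86-fold higher, and Orc1, Mcm10, Cdt1 and Rfc5 were 3.66-fold (Rfc5) to 8.16-fold (Orc1) higher. The repair genes Xrcc5 (Ku80), Brca1, Parp1 and Chek2 were 5.89-fold (Chek2) to 6.93-fold (Xrcc5) higher. Chek1 was 2.13-fold lower. Of 44 mitosis genes, 12 were higher and 2 lower (median 0.34), with Mybl2 17.1-fold higher, Espl1 4.47-fold higher, Nek2 3.93-fold higher, Bub1b 3.1-fold higher and Cenpf 3.02-fold higher, and Aurkb and Anln 2.68-fold and 2.1-fold lower.

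CDK inhibitors, which act as cell cycle brakes, were lower or within 2-fold of MEF. The CDK inhibitor genes Cdkn2c, Cdkn1b (p27), Cdkn2b and Cdkn1c were 2.94-fold (Cdkn1c) to 8.43-fold (Cdkn2c) lower. Cdkn2a, which encodes the senescence proteins p16 and Arf, had a difference of -0.49 and Cdkn1a (p21) one of -0.78. Ccne1, the G1 cyclin of pluripotent cells, was 3.48-fold higher and Ccne2 at least 3.86-fold lower. Trp53 (p53), Mdm4 and the p53 target Perp were 2.81-fold (Trp53) to 10.1-fold (Perp) higher, and the lamin gene Lmnb1 was 4.21-fold higher and Lmna, the lamin gene of differentiated cells, 2.82-fold lower. Over the list, 7 of 38 were higher and 7 lower, and the median of -0.13 changed sign under 1 of 10 alternatives. Among apoptosis regulators, 5 of 31 were higher (Hrk, Bcl2l11, Dapk1, Birc2 and Bmf, by 2.45-fold to at least 5.08-fold) and 10 lower, led by Bok (4.77-fold), Casp12 (3.89-fold), Tnfrsf1a (3.87-fold), Casp1 (3.15-fold) and Casp9 (2.44-fold).

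Of 44 imprinted genes, 9 were higher by 2-fold or more and 16 lower (median -0.46). The placental genes Phlda2, Ascl2 and Peg10 were 9.19-fold (Peg10) to at least 50.4-fold (Phlda2) higher, Snrpn 11.1-fold higher and Ddc 8.51-fold higher. Dlk1, which fibroblasts and other progenitors secrete, gave 6431 in iPS-OSH and 59869 in MEF, 8.29-fold lower, and Asb4 and Zim1 were 10.9-fold and 8.19-fold lower. Meg3, the noncoding RNA of the locus of Dlk1, gave 28629.7 in iPS-OSH and 35824 in MEF, a difference of -0.16, with 6409 for iPS-J and 15961 for ESC. The neighbours Dlk1 and Meg3 thus differed by unlike amounts, whereas Igf2 and H19 were both lower. Of 19 sex-linked genes, 1, Kdm6a, was higher, and Xist gave 357 in iPS-OSH and 476 in MEF, a difference of -0.25.

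Housekeeping genes gave a check on the scaling: 1 of 32 was higher and 4 lower (median -0.18). Actb gave 480018 in iPS-OSH and 654795 in MEF, a difference of -0.28, and Gapdh one of -0.08. The tubulin gene Tuba1a, Emc7, Reep5 and Gusb were 2.03-fold (Gusb) to 4.21-fold (Tuba1a) lower, and Ywhaz was 2.29-fold higher. Of 36 RNA-binding regulators, 10 were higher, including Rbm47 (6.77-fold), and 8 lower. The lower ones were led by the muscleblind genes Mbnl3 and Mbnl1, which repress splicing patterns of pluripotent cells, 10.1-fold and 5.54-fold lower, with Celf2, Rbfox1 and Khdrbs3 2.72-fold (Khdrbs3) to 5.44-fold (Celf2) lower.

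Only 92 of the 388 genes at least 16-fold higher belonged to any of the 65 lists. Outside the lists, the largest measured differences were those of Pigp (1636-fold), Dppa5b (1635-fold), Gtsf1l (363-fold), Tcf15 (321-fold), Morc1 (248-fold), Pla2g1b (215-fold) and Bex4 (213-fold). Pigp, of the GPI anchor pathway, gave 262825 in iPS-OSH and 180.4 in MEF, but its other probe lay at -0.99. Tcf15, a helix-loop-helix factor known from paraxial mesoderm and epiblast, gave 12582 in iPS-OSH and 44 in MEF, with 20613 for iPS-J and 13730.3 for ESC. The maternal effect gene Khdc3, Bex1, Pramel13, the glutathione transferase gene Gsta3 and Acsbg3 were 152-fold (Acsbg3) to 199-fold (Khdc3) higher. Gsta3 gave 9211 in iPS-OSH and 58.3 in MEF, with 1220.0 for iPS-J and 2169 for ESC, so its signal was highest in iPS-OSH. Among the largest bounds were those of Mymx, the micropeptide of myoblast fusion (at least 1109.7-fold), Arl14epl (at least 768-fold), Rbmxl2 (at least 458-fold), Fam25c (at least 454-fold), Mageb16 (at least 374-fold), Apela, the apelin receptor ligand (at least 309-fold), Wfdc2 (at least 194-fold), Lrrc34 (at least 159-fold), Cpsf4l (at least 145-fold), Pou5f1-rs4, a sequence related to Pou5f1 (at least 145-fold), Zscan4a (at least 138-fold) and Sult6b1 (at least 137-fold).

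Of the 29 genes at least 16-fold lower, the largest difference was that of the olfactory receptor gene Olfr922 (-7.11), which gave 49.5 in iPS-OSH and 7659.6 in MEF. Outside the lists, Lrrc17 gave 684 in iPS-OSH and 41278 in MEF, and Megf10, Ldb2, Capn6, Fibin and the pentraxin gene Ptx3 were 19-fold (Ptx3) to 32.9-fold (Megf10) lower. Gzmc, Lrrc75b, Lrp8, Sec16b, Lockd and Pappa2 were 14.2-fold (Pappa2) to 18-fold (Gzmc) lower. Among the largest bounds of genes with a common symbol were those of Vip (at least 16.7-fold), the serotonin receptor gene Htr7 (at least 15.6-fold), the cell adhesion gene Chl1 (at least 15.6-fold), Iltifb (at least 15-fold), Amy2a5 (at least 14.6-fold), Tas2r123 (at least 13.2-fold), Rtl3 (at least 11.6-fold), Tas2r138 (at least 11.5-fold), Rab39b (at least 11.2-fold), Mid2 (at least 10.2-fold), Angptl1 (at least 9.6-fold) and Tmem26 (at least 8.81-fold).

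LincRNA regions leaned further towards lower signals in iPS-OSH than mRNAs did. Of 17631 genes read by probes to RefSeq mRNAs, 14.5% were higher and 22.4% lower (median -0.25), and of 4396 lincRNA regions, 9.92% were higher and 28.6% lower (median -0.51). Chromosome medians over genes detected on both arrays ran, among the autosomes, from -0.44 on chromosome 3 to -0.19 on chromosomes 11 and 17, with -0.33 on the X chromosome and -0.51 over 9 genes of the Y chromosome. Differences between probes of a gene limit all these values: of 1803 other probes of genes at least 2-fold higher, 72.9% lay on the same side of 0 and 49.3% were also at least 2-fold higher, and of 3894 other probes of lower genes 80.9% and 38.8% did so. Among the genes named here, Amy2a5, Asb4, Gas1, Itga6, Maml2, Marveld3, Mbd1, Oas1g, Pfkp, Plxnc1 and Smo also had a detected probe on the other side of 0.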

How the data were processed

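Total RNA of iPS-OSH and MEF was taken up in Trizol, cleaned on RNeasy columns, checked on a Bioanalyzer and labelled with Cy3 by a Low Input Quick-Amp kit, per the labels. The scanner output deposited by the authors holds the processed intensity of each spot (background-subtracted by Feature Extraction 10.5.1.1, per the file headers), on probes placed on mm9. The deposited value table of the series holds the same processed signals rounded, on a linear scale and with no scaling between arrays (largest deviation 0.493% on iPS-OSH and 0.495% on MEF), and served as an alternative. The authors' own normalization steps beyond these files are not given in the sources used here.

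Control spots and spots marked uneven or as outliers were left out, leaving 55515 of 55681 probes. Log2 processed signal minus the array's 75th percentile was averaged per probe. Where a gene had several probes, the one that was brightest on average stood for it, with iPS-J and ESC counted beside iPS-OSH and MEF. Detection played no part in this choice and was judged afterwards on the chosen probe. A probe counted as detected where at least 50% of its spots were well above background. Probes were named through RefSeq accessions (26419), symbols (3993) and synonyms (826), or kept the file's name (24443). Where 1 array only detected a probe, the fold was taken against the other array's floor, the faintest signal among detected probes (29.7 on iPS-OSH and 37.8 on MEF), or the probe's own signal, if higher. With 1 array per group there was no test, so no p-value was computed.

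The 65 gene lists (2177 memberships, 2092 compared) and the members described were chosen with earlier results of these data known. Named genes are, per list, up to 5 largest in each direction at 2-fold or more, all members of lists of up to 20 genes, some fixed markers, the 12 largest measured values and 12 largest bounds outside the lists in each direction, and further list members where their role is described. Some genes that meet this rule are not reported here. Olfr922 and the genes of the promoter windows were named after their values were seen. Alternatives were normexp background correction (offset 50), quantile normalization, other scaling references, other filters, other probe rules and the deposited value table. The scripts were tested on simulated data. Python 3.11.15, numpy 2.4.6, pandas 2.3.3, matplotlib 3.10.9, R 4.3.3 and limma 3.58.1 were used. Promoters came from RefSeq (GRCm38.p6), and exon or UTR positions of probes are not given because no annotation of the probes' assembly was used here.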

Additional observations from a re-analysis of the deposited data

How the results depend on the processing

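No paired analysis was possible because each group has 1 array, and for the same reason no replicate could be left out. Under the 10 alternatives the counts at 2-fold stayed within 1.5 times the reported ones (3107 to 4779 higher and 5880 to 9383 lower), except that normexp background correction gave 4277 lower genes. At 4-fold in place of 2-fold the counts were 1475 higher and 1051 lower. The difference at the middle of all genes, the median, was -0.17 with quantile normalization and -0.50 with the deposited value table, which is not scaled between arrays, against -0.33. Of 650 list medians recomputed, 511 moved by less than the technical SD and 139 by more. Of 6860 values of named genes, 5220 moved by less, 1632 by more, and 8, all of genes at least 2-fold different, turned their direction. A change of sign in a gene within 2-fold was not counted as a turn. Part of both tallies was fixed in advance and does not measure robustness. Scaling on spike-in probes or on probes detected on all arrays, and the unscaled value table, shift all genes by nearly the same amount. The median shifted by -0.12, 0.07 and -0.17. All 694 named genes therefore stayed within the technical SD under the first 2 and moved under the third. Changes of filter or of the use of bounds left genes detected on both arrays unchanged. Taking the brightest probe over iPS-OSH and MEF alone gave -0.45 for Fgfr4, -0.99 for Pigp, -0.71 for Sall4 and -0.75 for Spint2. The median over a gene's probes gave -0.17 for Eomes, -0.00854 for Itga6, 0.20 for Marveld3 and 0.24 for Smarcc1. These 8 genes have probes that disagree, and the cause was not tested. Probes near background limit the rest: 1192 higher and 2296 lower differences are bounds, and 4020 genes were not well above background on either array.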
